A study of Mus musculus with 18 samples.

Results

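The 10 genes described here encode the proteins that carry a Toll-like receptor (TLR) signal from the receptor towards the transcription factor IRF5, together with the factors that place endosomal TLRs and the IRF5 pathway on the right membrane. They are the adaptors Myd88, Tirap, Ticam1 and Ticam2, the kinases of the IRAK family Irak1, Irak2, Irak3 and Irak4, and the endolysosomal proteins Unc93b1 and Slc15a4. They were found by matching the Ensembl IDs of the deposited gene count table to these mouse symbols, which gave 10 of 50600 gene IDs. All 10 were among the 15663 genes with enough counts to be tested.

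TLRs sense microbial molecules through an outer domain and signal through an inner TIR domain. MyD88, which is brought to TLR4 and TLR2 by TIRAP, assembles IRAK4 with IRAK1 or IRAK2 into a signalling complex, and IRAK3, also called IRAK-M, restrains it. TRIF, the product of Ticam1, is joined to internalised TLR4 by TRAM, the product of Ticam2, and drives interferon genes. UNC93B1 escorts nucleic acid sensing TLRs to endosomes, and SLC15A4 is a transporter of the endolysosome that is needed for the activation of IRF5 there.

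RNA was sequenced from bone marrow cells grown for 8 days with GM-CSF, which gives a population of macrophages mixed with dendritic-like cells, from wild-type (WT) mice and from mice labelled as lacking IRF5 (IRF5 KO). In each genotype there were 3 libraries each of unstimulated cells, of cells given DMSO for 1 h and then LPS, the TLR4 ligand, at 100 ng/ml for 2 h, and of cells given 3.5 µM defactinib for 1 h before the same LPS. Defactinib is a small molecule inhibitor of the kinases PYK2 and FAK. The labels give DMSO as the treatment of the unstimulated libraries while their names mark them as untreated, no library received defactinib without LPS, and the source of the IRF5 KO allele is not given for this experiment. The labels call the 3 libraries of a group biological replicates but do not tie them to animals. Each p-value therefore sets a difference against the spread between libraries, estimated over all 6 groups. In bulk RNA, fewer cells of a type and less RNA per cell cannot be told apart.

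The libraries held 39282181 to 61949143 counted read pairs. IRF5 KO LPS DMSO replicate 3 stood apart from its group, and the sources used here do not say whether it was handled or labelled differently, so values of that group hold only as far as its label does. The chi-square of its counts against the group's other libraries was 425 and 441 per gene, against 2.33 between replicates 1 and 2 and at most 183 within the other groups, so results on the 10 genes are also given without it where that changed a call or whether a gene passed the test. Levels are given in CPM, counts scaled by the TMM-normalised library size, or in RPKM, which are CPM per kilobase of exon. Irf5 itself was counted at 587 to 650 CPM in unstimulated WT and 335 to 397 CPM in unstimulated IRF5 KO libraries, and after LPS with DMSO it lay at 434 to 475 CPM in WT and 345 to 435 CPM in IRF5 KO. With defactinib it was at 213, 234 and 379 CPM in WT (log2 fold change against LPS with DMSO -0.71, adjusted p = 0.00182 in edgeR) and 353 to 392 CPM in IRF5 KO, so that the genotypes overlapped. A count over a whole gene does not check a deletion of some of its exons. The 8 macrophage markers summed to 9826 to 19133 CPM and the 7 dendritic cell markers to 3660 to 6426 CPM in every library, with Xcr1 of the latter below 1 CPM throughout. Mast cell and basophil markers summed to 8.06 to 15.7 CPM in WT and 43.2 to 73.2 CPM in IRF5 KO libraries, with Mcpt8, Ms4a2, Prss34 and Fcer1a below 1 CPM in all of them. Neutrophil markers summed to 56.8 to 79.6 CPM in unstimulated and 110 to 215 CPM in LPS-stimulated libraries. Macrophage and dendritic cell markers differed between some of the groups compared, as given beside those results. The part of these cells in the results on genotype, LPS and defactinib was not tested.

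The promoters of Ticam1, Tirap, Irak2 and Myd88 are shown because Ticam1 and Tirap fell the most with defactinib in WT cells, Irak2 was the gene called after LPS in WT, and Myd88 is the shared adaptor, as the values further on give. Each is the RefSeq sequence on GRCm38.p6 from 250 bases before to 50 bases after the gene's start, read 5′ to 3′ on the gene's strand. They lie at chr17:56276718-56277017 on the minus strand (Ticam1), chr9:35199916-35200215 on the minus strand (Tirap), chr6:113638217-113638516 on the plus strand (Irak2) and chr9:119339969-119340268 on the minus strand (Myd88). Capitals mark a match to 1 of 3 motifs searched on both strands: an NF-kB core (GGGANTTTC), an interferon-stimulated response element core (GAAANNGAA) and the AP-1 site (TGANTCA), where N is any base. The RefSeq start used lies 1393 bases inside the gene as the count table gives it for Myd88, 326 bases for Tirap, 19 bases for Ticam1 and 0 bases for Irak2.
Ticam1: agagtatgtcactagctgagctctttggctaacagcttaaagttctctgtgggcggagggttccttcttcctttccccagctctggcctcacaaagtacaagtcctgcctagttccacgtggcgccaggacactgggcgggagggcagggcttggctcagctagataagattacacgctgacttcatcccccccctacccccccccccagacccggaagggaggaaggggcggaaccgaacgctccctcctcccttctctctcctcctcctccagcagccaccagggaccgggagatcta
Tirap: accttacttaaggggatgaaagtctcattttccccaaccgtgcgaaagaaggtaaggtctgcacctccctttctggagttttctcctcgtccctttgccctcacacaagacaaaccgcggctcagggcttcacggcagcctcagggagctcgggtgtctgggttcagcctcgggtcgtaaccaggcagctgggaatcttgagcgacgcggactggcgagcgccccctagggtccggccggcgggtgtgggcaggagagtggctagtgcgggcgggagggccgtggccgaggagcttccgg
Irak2: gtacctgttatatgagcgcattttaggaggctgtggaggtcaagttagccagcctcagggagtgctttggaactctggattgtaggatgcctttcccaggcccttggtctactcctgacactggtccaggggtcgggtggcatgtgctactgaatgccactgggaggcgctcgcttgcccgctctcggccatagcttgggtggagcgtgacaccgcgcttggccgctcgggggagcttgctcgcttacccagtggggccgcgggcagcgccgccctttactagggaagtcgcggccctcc
Myd88: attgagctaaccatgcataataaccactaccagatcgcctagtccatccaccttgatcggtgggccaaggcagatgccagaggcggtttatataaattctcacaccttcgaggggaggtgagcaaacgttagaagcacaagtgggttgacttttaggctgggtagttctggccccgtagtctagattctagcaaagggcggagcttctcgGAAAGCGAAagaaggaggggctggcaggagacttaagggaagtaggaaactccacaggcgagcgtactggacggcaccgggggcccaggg
The only match in these 4 windows was the interferon-stimulated response element core of Myd88, whose first base lies 40 bases before the start and which 8.56% of all 32851 promoters hold. The NF-kB core was found in 1.11% and the AP-1 site in 7.81% of all promoters. A match is a description of letters, and its absence says only that these letters are not in the window. Promoters of 8 of the 10 genes were in the table used, and of those not printed, the upstream start of Irak3 also held the interferon-stimulated response element core, 102 bases before its start.

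Per exon length, Unc93b1 and Myd88 were the most abundant of the 10 transcripts in unstimulated WT cells, and Ticam2 and Tirap the least. Unc93b1 had 129 ± 3.02 RPKM (SD, n = 3) and Myd88 73.7 ± 2.96 RPKM (SD, n = 3). Irak1 had 19.99 ± 0.686 RPKM, Irak2 15.2 ± 0.215 RPKM and Ticam1 10.8 ± 0.486 RPKM (each SD, n = 3). Below them came Irak3 at 8.09 ± 0.313 RPKM and Irak4 at 7.99 ± 0.105 RPKM, whose libraries overlapped, then Slc15a4 at 6.97 ± 0.156 RPKM (each SD, n = 3). The libraries of Ticam2, at 5.69 ± 0.954 RPKM, and of Tirap, at 4.93 ± 0.369 RPKM (each SD, n = 3), overlapped too. Unc93b1 ranked first in all 6 groups and Tirap last in 5 of them. In IRF5 KO LPS defactinib, Irak2 took the second place at 43.5 ± 1.49 RPKM (SD, n = 3), above Myd88 at 40.2 ± 1.32 RPKM (SD, n = 3). From the highest to the lowest group mean in CPM, Ticam1 differed 8.45-fold, Tirap 8.21-fold, Ticam2 5.96-fold and Irak2 4.80-fold, while Irak1 differed 1.42-fold and Unc93b1 1.62-fold.

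**Figure D1:**
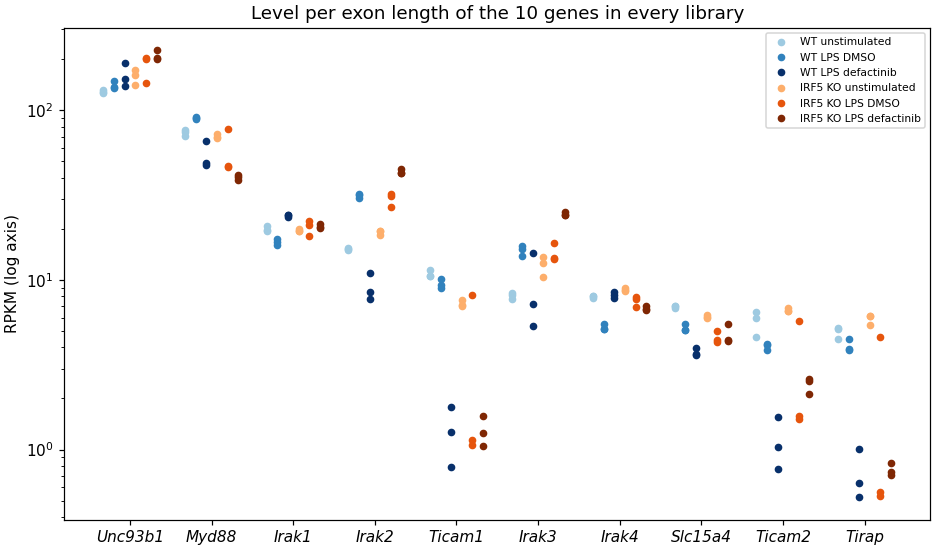
RPKM (log axis) of the 10 genes, 1 point per library, coloured by group and ordered by the mean in unstimulated WT cells. Ticam1, Ticam2 and Tirap have the widest spread between groups, down to 0.785, 0.772 and 0.522 RPKM, and Unc93b1 stays at 126 to 227 RPKM.

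Among the adaptors, Ticam1, Ticam2 and Tirap were lower in every WT library with defactinib than in any WT library without it, and so was Myd88, by a smaller fold. Ticam1, on chr17 at 56269319 to 56276786 of mm10 (ENSMUSG00000047123), was counted at 31.4, 31.7 and 34.0 CPM in unstimulated WT libraries and at 26.7, 28.1 and 30.2 CPM after LPS with DMSO. With defactinib before LPS it was at 2.35, 3.80 and 5.34 CPM, below every other WT library. In IRF5 KO it was at 20.96, 22.8 and 21.4 CPM unstimulated, 3.20, 3.42 and 24.4 CPM after LPS with DMSO, and 3.76, 4.73 and 3.13 CPM with defactinib. In the IRF5 KO LPS DMSO group, replicates 1 and 2 thus sat with the defactinib libraries and replicate 3 sat with the unstimulated ones.

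Tirap, the bridging adaptor of MyD88, on chr9 at 35184551 to 35200291 (ENSMUSG00000032041), showed the same split. It was counted at 25.5, 25.2 and 22.2 CPM in unstimulated WT libraries, 22.1, 19.2 and 19.01 CPM after LPS with DMSO and 3.14, 2.57 and 4.93 CPM with defactinib. Its IRF5 KO libraries were at 30.3, 26.8 and 30.3 CPM unstimulated, 2.62, 2.76 and 22.6 CPM after LPS with DMSO, and 4.13, 3.65 and 3.51 CPM with defactinib. Replicate 3 of IRF5 KO LPS DMSO was again the library at the higher level.

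Ticam2, the bridging adaptor of TRIF, was counted at 23.5, 25.4 and 18.1 CPM in unstimulated WT libraries, 16.2, 16.5 and 15.2 CPM after LPS with DMSO and 4.05, 3.03 and 6.11 CPM with defactinib. The IRF5 KO libraries were at 25.9, 26.8 and 25.8 CPM unstimulated, 6.20, 5.94 and 22.4 CPM after LPS with DMSO, and 9.95, 8.31 and 10.3 CPM with defactinib. With defactinib the IRF5 KO libraries were all above the WT ones. Ticam2 (ENSMUSG00000056130) shares 14299 bases, 838 of them exonic in both genes, with Tmed7 on the same strand, and reads on those exons would not have been counted, so its level is uncertain. Of the other members, Irak1 shares 71 and 70 exonic bases with 2 microRNA genes on its strand, and Myd88 lies within the span of Slc22a14 with 0 exonic bases shared. Tmed7 was at 102 to 140 CPM in all libraries. The coordinates of Ticam2 were also the only ones among the 10 genes that differed from the GENCODE M21 annotation used for symbols.

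Myd88, the shared adaptor of most TLRs and of the IL-1 receptors, on chr9 at 119335934 to 119341411 (ENSMUSG00000032508), was at 192, 181 and 196 CPM in unstimulated WT libraries and 233, 236 and 229 CPM after LPS with DMSO. With defactinib it was at 122, 125 and 169 CPM, below the unstimulated libraries. Among IRF5 KO libraries it was at 177, 179 and 187 CPM unstimulated, 119, 121 and 201 CPM after LPS with DMSO, and 99.8, 107 and 104 CPM with defactinib. WT LPS DMSO was thus the group with the highest mean and IRF5 KO LPS defactinib the one with the lowest.

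**Figure D2:**
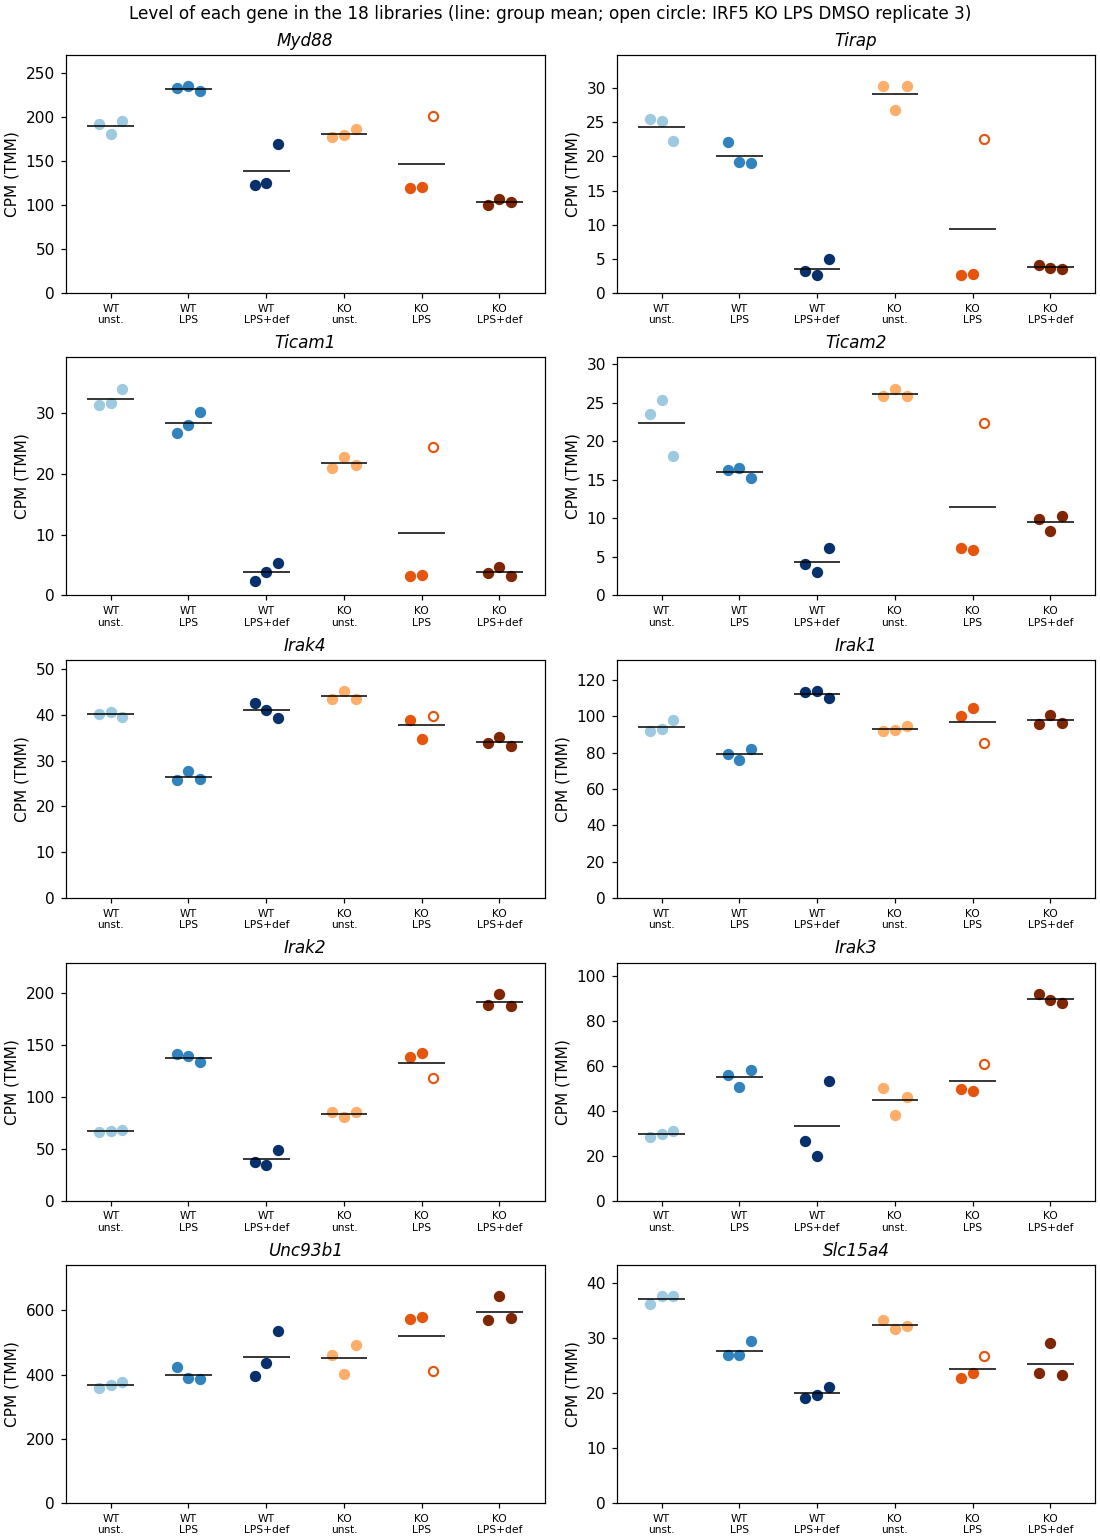
Level of each of the 10 genes in CPM (TMM-normalised, each axis from 0) in the 18 libraries; unst. is unstimulated, LPS is LPS with DMSO, LPS+def is LPS with defactinib and KO is IRF5 KO. In IRF5 KO LPS DMSO, replicate 3 (open circle) lies at 24.4 CPM for Ticam1 and 22.6 CPM for Tirap while replicates 1 and 2 lie at 3.20 to 3.42 CPM and 2.62 to 2.76 CPM.

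Among the kinases, Irak2 and Irak3, the inducible members of the family, had higher means after LPS with DMSO than in unstimulated WT cells, and both had their highest group mean in IRF5 KO with defactinib. Irak2, on chr6 at 113638467 to 113695026 (ENSMUSG00000060477), was at 66.1, 67.3 and 68.0 CPM in unstimulated WT libraries and 141, 139 and 133 CPM after LPS with DMSO. With defactinib it was at 37.6, 34.0 and 48.5 CPM, below the unstimulated level in each library. In IRF5 KO it was at 85.4, 80.8 and 85.8 CPM unstimulated, 139, 142 and 118 CPM after LPS with DMSO, and 189, 200 and 188 CPM with defactinib. The defactinib libraries were thus the lowest of all 18 in WT and the highest in IRF5 KO.

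Irak3, on chr10 at 120141648 to 120202130 (ENSMUSG00000020227), was at 28.5, 29.9 and 30.8 CPM in unstimulated WT libraries, 56.0, 50.6 and 58.2 CPM after LPS with DMSO and 26.7, 19.7 and 53.2 CPM with defactinib. Replicate 3 of the WT defactinib group lay within the range of LPS with DMSO, and the other two below the unstimulated level. In IRF5 KO, Irak3 was at 49.96, 38.1 and 46.2 CPM unstimulated, 49.8, 49.0 and 60.8 CPM after LPS with DMSO, and 92.2, 89.2 and 88.3 CPM with defactinib. The 3 IRF5 KO defactinib libraries were the highest of all.

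Irak4, the kinase that MyD88 recruits first, on chr15 at 94543643 to 94581815 (ENSMUSG00000059883), had its lowest group mean in WT cells after LPS with DMSO. It was at 40.2, 40.6 and 39.5 CPM unstimulated, 25.7, 27.8 and 25.9 CPM after LPS with DMSO and 42.6, 41.1 and 39.2 CPM with defactinib, so that the last group overlapped the unstimulated one. In IRF5 KO its 9 libraries lay between 33.3 and 45.2 CPM. Irak1, a substrate of IRAK4, on chrX at 74013914 to 74023918 (ENSMUSG00000031392), was at 91.8, 93.1 and 97.9 CPM in unstimulated WT libraries, 79.4, 76.2 and 82.2 CPM after LPS with DMSO and 114, 114 and 110 CPM with defactinib. Its IRF5 KO libraries lay between 85.3 and 105 CPM in all 3 conditions.

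Of the trafficking factors, Unc93b1, on chr19 at 3935186 to 3949340 (ENSMUSG00000036908), was at 359, 367 and 376 CPM in unstimulated WT libraries, 424, 390 and 387 CPM after LPS with DMSO and 395, 437 and 537 CPM with defactinib. IRF5 KO libraries were at 461, 401 and 492 CPM unstimulated, 572, 579 and 413 CPM after LPS with DMSO, and 569, 644 and 576 CPM with defactinib. Each IRF5 KO library exceeded every unstimulated WT library. Slc15a4, on chr5 at 127595664 to 127632897 (ENSMUSG00000029416), was at 36.1, 37.5 and 37.5 CPM in unstimulated WT libraries, 26.8, 26.8 and 29.4 CPM after LPS with DMSO and 19.05, 19.6 and 21.1 CPM with defactinib, 3 groups that did not overlap. In IRF5 KO it was at 33.2, 31.5 and 32.2 CPM unstimulated, 22.8, 23.5 and 26.7 CPM after LPS with DMSO, and 23.7, 29.1 and 23.2 CPM with defactinib.

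Differences between groups were tested with edgeR over all 15663 genes. A gene is said to have passed the test at a Benjamini-Hochberg adjusted p below 0.05, and is called changed if its log2 fold change also exceeded 1 in size. LPS in WT cells raised Irak2 and Irak3 and lowered Irak1, Irak4 and Slc15a4. Irak2 rose by 1.04 on the log2 scale (standard error 0.11, adjusted p = 1.94e-06) and was the 1 gene of the 10 called changed, where 21.3% of all tested genes were. Irak3 rose by 0.88 (standard error 0.24, adjusted p = 0.00823). Irak4 fell by 0.60 (standard error 0.08, adjusted p = 1.35e-05), Slc15a4 fell by 0.42 (adjusted p = 0.00275) and Irak1 fell by 0.25 (adjusted p = 0.0171). Irak1 did not pass in every fit that left out 1 library, with adjusted p-values up to 0.0663. The 5 of 10 genes that passed the test at any fold compare with 41.8% of all genes. The libraries of all 10 genes were separate between these groups, as were those of 64.6% of all genes. Ticam1, Ticam2, Tirap, Myd88 and Unc93b1 had adjusted p-values from 0.167 to 0.811. IRF5 KO LPS DMSO replicate 3 is in neither group compared here, but enters through the gene filter, the scaling and the shared spread. When it was left out, Myd88 at 0.29 and Ticam2 at -0.49 passed the test too (adjusted p = 0.0158 and 0.0227 in edgeR). With library sizes alone in place of TMM, Irak2 kept a log2 fold change of 0.66 and lost its call, while the median of all genes moved to -0.38. The summed dendritic cell markers were at 5172 to 5316 CPM in unstimulated WT libraries and 5447 to 6426 CPM after LPS, which did not overlap, and their part in the result was not tested.

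In IRF5 KO cells LPS lowered Tirap and Ticam2. Tirap fell by 1.63 (standard error 0.57, adjusted p = 0.037) and Ticam2 fell by 1.18 (standard error 0.38, adjusted p = 0.0269), and these 2 were the genes called, against 13.3% of all genes. Without IRF5 KO LPS DMSO replicate 3, Tirap fell by 3.44, Ticam1 fell by 2.72 and Ticam2 fell by 2.11, with adjusted p-values of 4.91e-10, 4.86e-08 and 1.93e-07 in edgeR, and these 3 genes were called against 26.2% of all genes. With all libraries Ticam1 stood at -1.06 ± 0.55 (SE, log2) and did not pass (adjusted p = 0.134). The calls of Tirap and Ticam2 were lost when any 1 library of the unstimulated IRF5 KO group, or replicate 1 or 2 of IRF5 KO LPS DMSO, was left out, with adjusted p-values up to 0.131 and 0.122. Both were also lost without a filter and with only the groups compared in the fit. Irak2 rose by 0.66 (adjusted p = 0.000913), and Slc15a4 and Irak4 fell by 0.41 and 0.22 (adjusted p = 0.00707 and 0.034), so that 5 of 10 genes passed the test at any fold, against 37.5% of all genes. Leaving out IRF5 KO LPS DMSO replicate 3 gave 0.74, -0.48 and -0.26 for these genes, and Myd88 and Unc93b1 passed the test as well. Myd88 went from -0.30 (adjusted p = 0.151) to -0.59 (adjusted p = 0.000157) and Unc93b1 from 0.21 (adjusted p = 0.221) to 0.35 (adjusted p = 0.0128). Irak4 did not pass in every fit that left out 1 library, with adjusted p-values up to 0.215. The summed dendritic cell markers were at 3660 to 3886 CPM in unstimulated IRF5 KO libraries and 4502 to 6217 CPM after LPS, again with no overlap, and their part was not tested.

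Tested as an interaction, the response to LPS was called different between genotypes for 0 of the 10 genes in edgeR, against 9.83% of all genes. An unadjusted p below 0.05 was reached by 4, and the share of all genes below it was not counted. limma-voom called 1 and DESeq2 called 0. Irak4 passed the test at a smaller fold, with a difference (WT response minus IRF5 KO response) of -0.38 (standard error 0.11, adjusted p = 0.025). It did not pass in every fit that left out 1 library, with adjusted p-values up to 0.0612. Without IRF5 KO LPS DMSO replicate 3, the difference was 3.17 for Tirap, 2.52 for Ticam1 and 1.62 for Ticam2, and these 3 were called, against 23.6% of all genes. The difference for Myd88 was 0.59 with all libraries (adjusted p = 0.0865) and 0.89 without that library (adjusted p = 8.8e-05), and that for Irak1 was -0.31 (adjusted p = 0.0675) and -0.39 (adjusted p = 0.00226). The result on the adaptors rested on that library.

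Defactinib before LPS in WT cells lowered 7 of the 10 genes, raised Irak4 and Irak1, and left Unc93b1 short of the test. Ticam1 fell by 2.89 (standard error 0.59, adjusted p = 0.000796), Tirap fell by 2.51 (standard error 0.60, adjusted p = 0.0026) and Ticam2 fell by 1.86 (standard error 0.40, adjusted p = 0.00109). Irak2 fell by 1.78 (standard error 0.11, adjusted p = 9.93e-09). These 4 were called changed, all lower, against 29.1% of all genes called and 18.6% called lower. Myd88 fell by 0.74 (adjusted p = 0.00124), Irak3 fell by 0.73 (adjusted p = 0.0193) and Slc15a4 fell by 0.47 (adjusted p = 0.000868). Irak4 rose by 0.63 (adjusted p = 7.13e-06) and Irak1 rose by 0.51 (adjusted p = 6.92e-05). The 9 of 10 genes past the test at any fold compare with 57.0% of all genes, and the libraries of 8 of 10 genes did not overlap, against 62.5% of all genes. The median log2 fold change of the 10 genes was -0.73 and that of all tested genes 0.09. The summed macrophage markers were at 9863 to 10377 CPM after LPS with DMSO and 11250 to 15714 CPM with defactinib in these WT libraries, and the dendritic cell markers at 5447 to 6426 CPM and 4487 to 5324 CPM, so that neither list overlapped between the groups. Their part in the result was not tested.

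The 4 calls in WT held when any 1 of the 18 libraries was left out. Without WT LPS defactinib replicate 3, Irak3 was also called, at -1.23, and it did not pass the test without replicate 3 of WT LPS DMSO, or without replicate 1 or 2 of the WT defactinib group, with adjusted p-values up to 0.0917. Without IRF5 KO LPS DMSO replicate 3, the adjusted p of Ticam1 was 1.56e-09 and that of Tirap 8.06e-10 in edgeR. That library is in neither group of this comparison and enters through the gene filter, the scaling and the shared spread. DESeq2 gave no adjusted p for Ticam1 and Tirap in any comparison.

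In IRF5 KO cells defactinib before LPS raised Irak2 by less than the fold threshold. Of the 10 genes, 0 were called in edgeR, against 0.919% of all genes. An unadjusted p below 0.05 was reached by 5, and the share of all genes below it was not counted. DESeq2 and limma-voom also called 0. Irak2 rose by 0.53 (standard error 0.11, adjusted p = 0.0206), the 1 gene of 10 past the test at any fold, against 3.36% of all genes. It was at 0.45 without IRF5 KO LPS DMSO replicate 3 (adjusted p = 0.017), and it did not pass when any 1 defactinib library of IRF5 KO was left out, with adjusted p-values up to 0.0886. Irak3 stood at 0.76 ± 0.24 (SE) and did not pass (adjusted p = 0.0861). Myd88 stood at -0.51 ± 0.16 (SE, adjusted p = 0.0854), with libraries that did not overlap, and at -0.22 without IRF5 KO LPS DMSO replicate 3. Ticam1, Tirap and Ticam2 had log2 fold changes of -1.42, -1.32 and -0.28 with all libraries (adjusted p = 0.15, 0.189 and 0.696). These values turned to 0.23, 0.49 and 0.65 without IRF5 KO LPS DMSO replicate 3, where 0 of 10 genes were called against 1.45% of all genes. When replicate 1 or 2 of that group was left out instead, Ticam1 and Tirap were called lower, at values down to -1.86 and -1.77. In IRF5 KO libraries the summed macrophage markers were at 9826 to 12603 CPM after LPS with DMSO and 18298 to 19133 CPM with defactinib, which did not overlap. The part of these markers in the values of Irak2 and Irak3 was not tested.

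**Figure D3:**
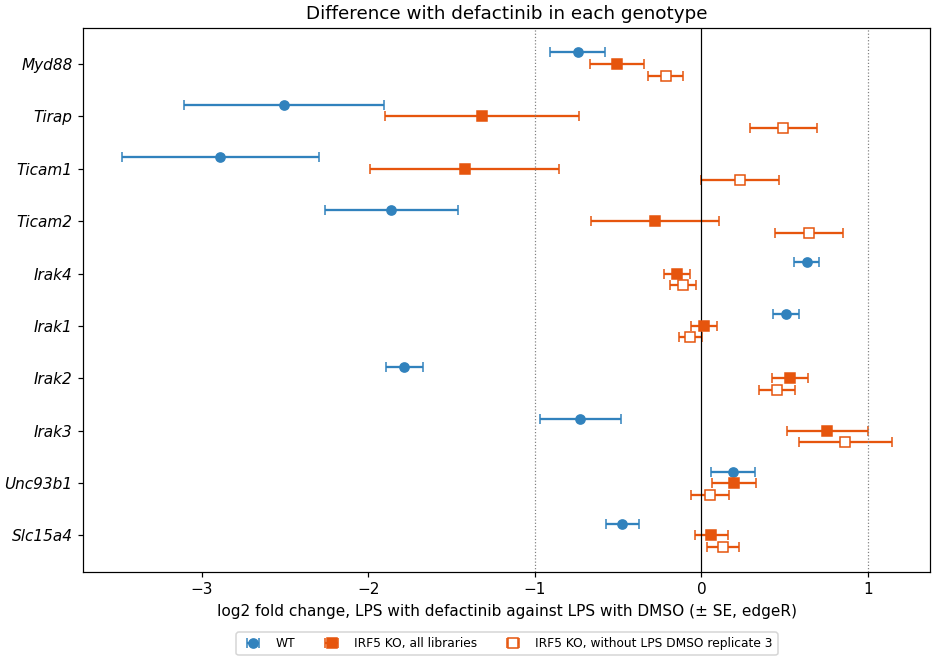
Log2 fold change of LPS with defactinib against LPS with DMSO (± standard error, edgeR) for the 10 genes in WT and in IRF5 KO with all libraries (filled) and without IRF5 KO LPS DMSO replicate 3 (open squares); dotted lines mark a log2 fold change of 1 in either direction. Irak2 lies at -1.78 in WT and 0.53 in IRF5 KO, and Ticam1 at -2.89 in WT and at -1.42 or 0.23 in IRF5 KO.

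The response to defactinib was called different between WT and IRF5 KO for Irak2, Irak3 and Ticam2, 3 of 10 genes against 22.8% of all genes. The summed macrophage markers of the groups compared were also higher with defactinib in both genotypes, and their part in these differences was not tested. The difference was -2.32 for Irak2 (WT minus IRF5 KO, standard error 0.15, adjusted p = 3.85e-08), -1.48 for Irak3 (standard error 0.34, adjusted p = 0.00342) and -1.58 for Ticam2 (standard error 0.55, adjusted p = 0.0341). Those of Irak2 and Irak3 stayed called whichever library was left out, at -2.24 and -1.59 without IRF5 KO LPS DMSO replicate 3. That of Ticam2 was called in 9 of 18 such fits, with adjusted p-values up to 0.0909, and it lost its call with library sizes alone (-1.20), without a filter (-1.57) and with only the groups compared in the fit (-1.56). Irak4 and Irak1 had differences of 0.78 and 0.49 (adjusted p = 5.17e-05 and 0.00279) and Slc15a4 of -0.53 (adjusted p = 0.00759), so that 6 of 10 genes passed the test at any fold, against 37.0%. Ticam1 and Tirap had differences of -1.47 and -1.19 (adjusted p = 0.163 and 0.274). These became -3.12 and -3.00 without IRF5 KO LPS DMSO replicate 3, and 5 of 10 genes were called against 31.6% of all genes. Myd88 had a difference of -0.24 (adjusted p = 0.446) and passed the test without that library, at -0.53 (adjusted p = 0.00492). The comparisons of LPS and of defactinib within a genotype share the LPS DMSO libraries.

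Between unstimulated WT and IRF5 KO cells, 0 of the 10 genes were called in edgeR, against 7.31% of all genes. An unadjusted p below 0.05 was reached by 3, and the share of all genes below it was not counted. DESeq2 and limma-voom also called 0. The libraries of 8 of the 10 genes did not overlap between the genotypes, against 51.4% of all genes, and all log2 fold changes (WT minus IRF5 KO) lay between -0.59 for Irak3 and 0.58 for Ticam1. When IRF5 KO LPS DMSO replicate 3 was left out of the whole fit, Ticam1 at 0.57, Irak2 at -0.32 and Unc93b1 at -0.30 passed the test (adjusted p = 0.0244, 0.0188 and 0.0366). Dendritic cell markers, at 5172 to 5316 CPM in WT and 3660 to 3886 CPM in IRF5 KO, did not overlap between these groups either, and their part was not tested.

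After LPS with DMSO, Myd88 and Ticam1 were higher and Irak4, Irak1 and Unc93b1 lower in WT than in IRF5 KO, 5 of 10 genes past the test at any fold against 52.2% of all genes. The log2 fold change was 1.45 for Ticam1 (standard error 0.55, adjusted p = 0.0399), the 1 gene called, against 25.8% of all genes. That call was kept in 4 of the 18 fits that left out a library, and it was lost with library sizes alone, without a filter and with only the groups compared in the fit. Without IRF5 KO LPS DMSO replicate 3, the values were 3.10 for Ticam1, 2.90 for Tirap and 1.39 for Ticam2, and these 3 genes were called, against 34.5% of all genes. With all libraries Tirap and Ticam2 were at 1.10 and 0.47 (adjusted p = 0.117 and 0.316). Myd88 was at 0.66 (adjusted p = 0.00344), and at 0.95 without that library. Irak4 was at -0.51 (adjusted p = 6.43e-05), Unc93b1 at -0.38 (adjusted p = 0.0248) and Irak1 at -0.29 (adjusted p = 0.00672), and without that library they were at -0.48, -0.52 and -0.37. Slc15a4, at 0.19 (adjusted p = 0.125), passed the test without it, at 0.26 (adjusted p = 0.0286). Unc93b1 did not pass in every fit that left out 1 library, with adjusted p-values up to 0.0945. Irak2 and Irak3 had values of 0.05 and 0.04 (adjusted p = 0.7 and 0.888).

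After LPS with defactinib, the inducible kinases Irak2 and Irak3 and the adaptor Ticam2 were lower in WT than in IRF5 KO. The log2 fold change (WT minus IRF5 KO) was -2.26 for Irak2 (standard error 0.11, adjusted p = 1.19e-09), -1.44 for Irak3 (standard error 0.25, adjusted p = 0.000305) and -1.11 for Ticam2 (standard error 0.39, adjusted p = 0.0381). These 3 genes were called, all lower in WT, against 17.3% of all genes called and 8.87% called lower in WT. Ticam2 kept its call in 10 of the 18 fits that left out a library, with adjusted p-values up to 0.137, and lost it with library sizes alone (-1.04) and without a filter (-1.14). The summed macrophage markers were at 11250 to 15714 CPM in these WT and 18298 to 19133 CPM in these IRF5 KO libraries, and their part in the result was not tested. Unc93b1 and Slc15a4 had values of -0.39 and -0.35 (adjusted p = 0.0322 and 0.0128) and Irak4 of 0.26 (adjusted p = 0.0129). In this comparison 6 of 10 genes passed the test at any fold, against 36.3% of all genes. When 1 library was left out, Unc93b1 and Slc15a4 went as far as -0.25 and -0.22, with adjusted p-values up to 0.174 and 0.108. Ticam1 and Tirap had means in WT and IRF5 KO of 3.83 ± 1.50 and 3.87 ± 0.801 CPM for Ticam1 and 3.55 ± 1.23 and 3.76 ± 0.327 CPM for Tirap (SD, n = 3 each), with adjusted p-values of 0.982 and 0.923. Myd88 and Irak1, at 0.43 and 0.20 (adjusted p = 0.0515 and 0.0533), passed the test without IRF5 KO LPS DMSO replicate 3 (adjusted p = 0.00142 and 0.0123).

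Ratios between genes of 1 library do not depend on how libraries are scaled to each other. The ratio of Myd88 to Ticam1 in RPKM was 6.82 ± 0.258 in unstimulated WT, 9.57 ± 0.676 after LPS with DMSO and 45.2 ± 13.3 with defactinib (SD, n = 3 each). In IRF5 KO it was 9.69 ± 0.509 unstimulated and 31.8 ± 6.23 with defactinib (SD, n = 3 each), and after LPS with DMSO it was 43.3, 41.1 and 9.57 in the 3 libraries. The groups of WT cells did not overlap. The ratio of Irak2 to Irak4 was 1.91 ± 0.0458 in unstimulated WT, 5.94 ± 0.269 after LPS with DMSO and 1.12 ± 0.252 with defactinib (SD, n = 3 each). The means in IRF5 KO were 2.17 ± 0.119, 4.03 ± 0.626 and 6.41 ± 0.061 (SD, n = 3 each) in the same order, so that the defactinib group was the lowest in WT and the highest in IRF5 KO.

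**Figure D4:**
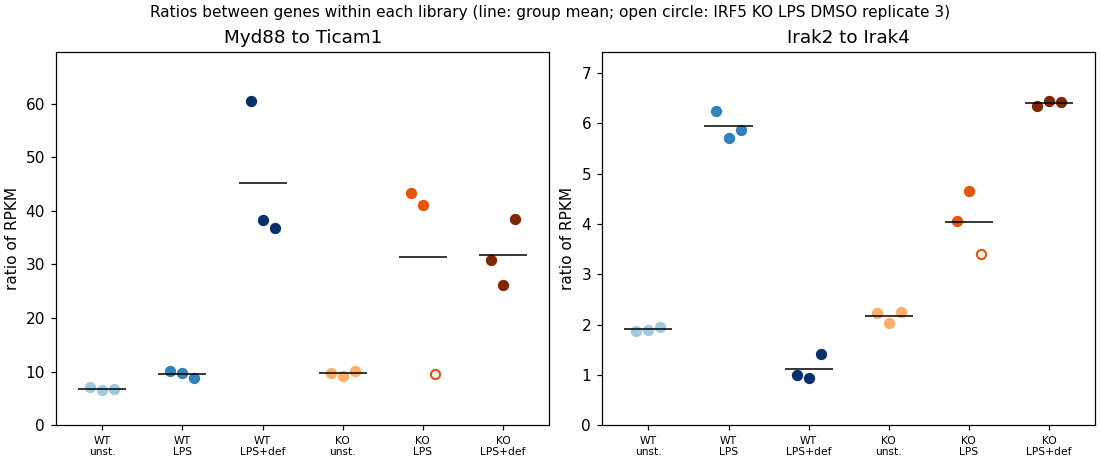
Ratio of Myd88 to Ticam1 (left) and of Irak2 to Irak4 (right) in RPKM within each library, by group (unst., unstimulated; LPS, LPS with DMSO; LPS+def, LPS with defactinib; KO, IRF5 KO), on axes from 0. The ratio of Myd88 to Ticam1 lies at 36.8 to 60.6 in WT with defactinib and at 6.64 to 10.1 in the other WT libraries.

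Genes around the 10 in the pathway were counted from 6 lists, with the genes called higher and lower read beside the shares of all genes called in each direction. These were 11.6% higher and 9.71% lower for LPS in WT, 10.4% higher and 18.6% lower for defactinib in WT, and 0.160% higher and 0.760% lower for defactinib in IRF5 KO. Of 17 TLR and LPS co-receptor genes, LPS in WT raised 5 and lowered 1 (6 and 2 in the fit without IRF5 KO LPS DMSO replicate 3). Defactinib in WT lowered 10 and raised 0. Tlr2, a receptor for bacterial lipoproteins, was at 326 CPM after LPS and 43.0 CPM with defactinib (log2 fold change -2.92, adjusted p = 4.49e-06), and Cd14, the LPS co-receptor, at 388 and 102 CPM (-1.93, adjusted p = 1.16e-05). Of 22 genes of kinases and ubiquitin ligases downstream of the IRAKs and TRIF, LPS in WT raised 6 and lowered 3, and defactinib in WT lowered 8 and raised 0. Among the latter were Tank, a scaffold of TBK1, from 317 to 87.7 CPM (-1.85, adjusted p = 2.22e-08), and Tab2, an adaptor of the kinase TAK1, from 209 to 98.7 CPM (-1.08, adjusted p = 3.67e-06), which was at -0.94 and not called without WT LPS defactinib replicate 2. Ikbkb, an IkB kinase, was at 119 and 123 CPM (0.05, adjusted p = 0.819).

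Of 15 tested inhibitor genes of TLR signalling, LPS in WT raised 6 and lowered 1 (7 and 1 without that library), and defactinib in WT lowered 5 and raised 1. Socs3, an inhibitor of cytokine receptor signalling, fell from 573 to 193 CPM (-1.57, adjusted p = 0.000441) with defactinib, while Tnfaip3, which encodes the ubiquitin editing enzyme A20, was at 973 and 1320.2 CPM (0.44, adjusted p = 0.467) and had an adjusted p of 0.00775 when the library that stood apart was left out. Of 16 tested genes of endosomal TLR trafficking and processing, defactinib in WT raised 2, Cnpy3 and Bloc1s2, and lowered 0, and Ctsb, a lysosomal protease, was at 2752 and 3487 CPM (0.34, adjusted p = 0.0259). Of 9 IRF genes it lowered 5 and raised 0, with Irf4 at 449 and 24.3 CPM (-4.21, adjusted p = 4.79e-06) and Irf8 at 588 and 114 CPM (-2.37, adjusted p = 0.00714). The 3 defactinib libraries of Irf8 were at 39.8, 41.1 and 260.3 CPM, and its log2 fold change was -3.84 without replicate 3 of that group. Of 6 IL-1 and IL-18 family receptor genes defactinib in WT lowered 1, Il1rap, the shared co-receptor that works through MyD88, from 73.7 to 31.2 CPM (-1.24, adjusted p = 6.29e-05). In IRF5 KO cells defactinib changed 1 gene of the 6 lists, Tbkbp1, which was lower. Without IRF5 KO LPS DMSO replicate 3 the genes changed were Tlr2 and Tlr13, both higher. Cnpy3, Bloc1s2 and Tbkbp1 were named after their values were seen.

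**Figure D5:**
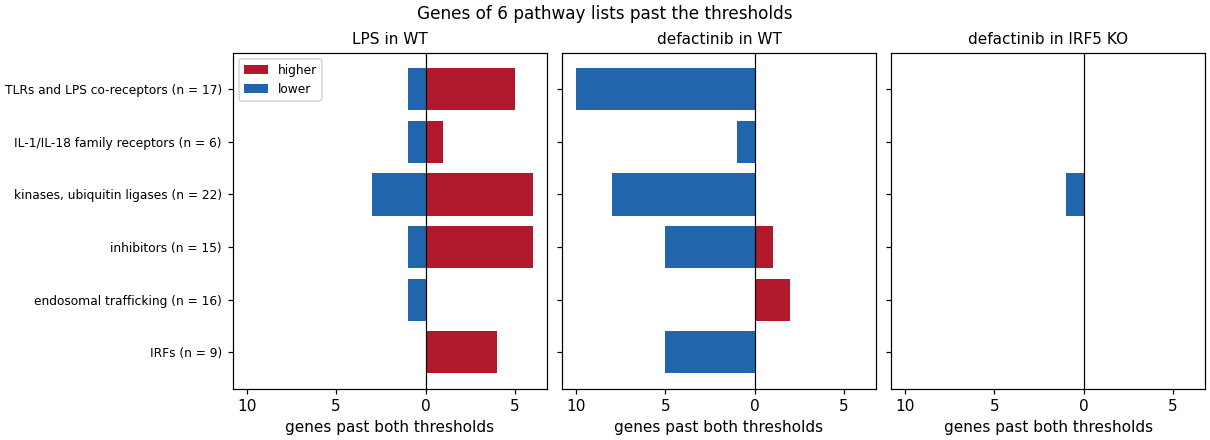
Number of genes of 6 pathway lists past both thresholds (adjusted p below 0.05 and log2 fold change above 1 in size), higher to the right and lower to the left of 0, for LPS in WT, defactinib before LPS in WT and defactinib before LPS in IRF5 KO; n is the number of genes tested. Defactinib in WT has 10 of 17 receptor genes lower, and defactinib in IRF5 KO has 1 gene in all lists.

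For the 6 of the 10 genes whose group means spanned at least 1 on the log2 scale, the 2 most alike of 10915 other genes were found by Pearson's r of log2 CPM over the 18 libraries, which share groups and are not independent. Those of 5 genes are given. They were Ttc33 (0.994) and Sema4d (0.991) for Tirap, Togaram1 (0.991) and Ctcf (0.989) for Ticam2, and Cdc42se1 (0.988) and Spryd4 (0.987) for Ticam1. For the kinases they were Cand1 (0.989) and Rnf19a (0.981) for Irak2 and Dusp4 (0.942) and Rffl (0.929) for Irak3.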

How the data were processed

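RNA-seq gene counts were measured in 18 libraries, 3 in each of 6 groups. Per the file headers and the submitters' processing notes, the authors aligned read pairs with STAR to mm10 and counted them per gene with featureCounts 1.6.3 (reverse-stranded, exons, minimum mapping quality 255), and the deposited values are raw counts with the exon length of each gene. The study's methods name DESeq2 for testing. Here, symbols came from GENCODE M21 (50376 of 50600 IDs, and 24142 IDs held no count). Counts were normalised with TMM and tested in R 4.3.3 with edgeR 4.0.16 (quasi-likelihood F test, all libraries in the fit), after filterByExpr, with Benjamini-Hochberg adjustment over 15663 genes. A positive genotype value means higher in WT. CPM and RPKM used the TMM library sizes, and log2 CPM a prior count of 2. The fitting code was tested on simulated data.

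Named genes were the 10 members, the 3 tested genes of each pathway list with the highest mean level, the 2 genes most like each member whose group means spanned at least 1 on the log2 scale, and Irf5 and Ptk2b. The genes most like Myd88 are not reported here. Ptk2b, which encodes PYK2, was at 168 CPM after LPS and 109 CPM with defactinib in WT (log2 fold change -0.62, adjusted p = 2.44e-05). The members, lists and motifs were chosen with earlier results of these data known. Alternatives were DESeq2 1.42.0 and its size factors, limma-voom (limma 3.58.1), library sizes alone, no filter or 5 CPM in 3 libraries, a replicate block, only the groups compared, no fold threshold and leaving out each library. Depth was high enough that the lowest count of any member in any library was 101.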

Additional observations from a re-analysis of the deposited data

Results flagged for a closer look

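The response to defactinib differed between WT and IRF5 KO cells, by a test of the interaction in edgeR, for 3 of the 10 genes, against 22.8% of all genes tested. The difference in log2 fold change (WT minus IRF5 KO) was -2.32 for Irak2, -1.48 for Irak3 and -1.58 for Ticam2, with adjusted p-values of 3.85e-08, 0.00342 and 0.0341. Irak2 was lower in all 3 WT libraries with defactinib than in any WT library without it, and higher in all 3 IRF5 KO libraries with defactinib than in any IRF5 KO library without it. The value of Ticam2 was -2.51 without IRF5 KO LPS DMSO replicate 3, and -1.20 with library sizes alone. The summed macrophage markers with defactinib were at 11250 to 15714 CPM in WT and 18298 to 19133 CPM in IRF5 KO, and their part in these values was not tested. Ticam2 was not called in 12 of 26 alternatives, which were library sizes alone, no filter, only the groups compared in the fit and 9 of the 18 fits that left out a library.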

How the results depend on the processing

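No called value of the 10 genes changed sign under any alternative. Without a fold change threshold, 5 genes passed for LPS in WT, 5 for LPS in IRF5 KO, 9 for defactinib in WT, 1 for defactinib in IRF5 KO, 5 for genotype after LPS, 6 for genotype after LPS with defactinib, 1 for the interaction of genotype and LPS and 6 for that of genotype and defactinib. With library sizes alone, 0 genes were called for LPS in WT and 0 for genotype after LPS. The interaction of genotype and defactinib then had 1 gene called higher, Irak4 at 1.11, and 2 lower, against 3 lower with TMM. Without a filter, and with only the groups compared in the fit, 0 were called for LPS in IRF5 KO and 0 for genotype after LPS. DESeq2, which gave no adjusted p for Ticam1 and Tirap, called 1 for LPS in IRF5 KO, 2 for defactinib in WT and 0 for genotype after LPS, and limma-voom called 2 for genotype after LPS and 1 for the interaction of genotype and LPS. The cause of these differences was not tested.

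Leaving out each library in turn gave 0 to 3 calls for LPS in IRF5 KO, 4 to 5 for defactinib in WT, 0 to 2 for defactinib in IRF5 KO, 0 to 3 for genotype after LPS, 2 to 3 for genotype after LPS with defactinib, 0 to 3 for the interaction of genotype and LPS and 2 to 5 for that of genotype and defactinib. For defactinib in IRF5 KO the log2 fold change then ranged from -1.86 to 0.23 for Ticam1, -0.61 to 0.65 for Ticam2, -1.77 to 0.49 for Tirap, -0.066 to 0.062 for Irak1 and -0.063 to 0.13 for Slc15a4. Library sizes alone turned the sign of Myd88 for LPS in WT (-0.085), Unc93b1 for LPS in IRF5 KO (-0.042), Irak1 and Slc15a4 for defactinib in IRF5 KO (-0.10 and -0.077), Slc15a4 for genotype after LPS (-0.072) and Myd88 for the interaction of genotype and defactinib (0.11), and the stricter filter that of Irak1 for defactinib in IRF5 KO (-0.033). Under library sizes alone the median log2 fold change of all genes lay between -0.38 and 0.45 over the comparisons, against -0.059 to 0.12 with TMM.

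Over 45 pairs of libraries with the same replicate number, the median correlation of deviations from the group means was 0.00455. The highest was 0.278, and 4 were above 0.1. These values cannot tell whether same-numbered libraries share an animal or a batch. A replicate block gave 4 calls for defactinib in WT, 2 for LPS in IRF5 KO and 3 for the interaction of genotype and defactinib, the counts of the fit without it.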
